A study of Mus musculus with 9 samples.

Results

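The comparison described here sets cells that express C/EBPβ-LIP (LIP) against cells with the empty vector (EV). It covers 3 LIP and 3 EV libraries, 6 of the 9 samples of the series, chosen by their labels. All were made from immortalised mouse embryonic fibroblasts (MEFs) of the strain C57BL/6 x 129 that are labelled as knocked out for Cebpb (Cebpb-ko), controls included. LIP cells were stably transfected with a plasmid for rat C/EBPβ-LIP, and EV cells with the plasmid without insert. Whether the libraries of a group came from separate cultures, or a line from 1 clone, is not given in the sources used here, so p-values measure the spread between these libraries, which may be technical. Polyadenylated RNA was sequenced, and the reads counted on each gene numbered 24839139 to 33467491 per library. Reads were counted on Cebpb in every library, with 973, 684 and 1041 counts in EV and 816, 863 and 985 in LIP. EV cells hold no insert, so these counts do not show the deletion, and which part of the gene it removes is not given in the sources used here. Listed families of matrix and adhesion genes, genes of glycolysis and the pentose phosphate pathway, and Lin28b are set aside here, and the rest of the transcriptome is described.

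C/EBPβ is a bZIP transcription factor of fibroblasts, adipocytes, liver and myeloid cells that controls differentiation, inflammatory and metabolic genes. Its single mRNA is translated from alternative start codons into the long isoforms LAP* and LAP and the short isoform LIP. LIP keeps the DNA-binding and dimerisation domain but lacks the transactivation domains, and can therefore oppose LAP and other C/EBP proteins at their sites.

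Of the 18203 genes with at least 1 count, 60 had lower and 12 higher expression in LIP, or 0.330% and 0.0659% of all genes tested. Genes were called at an adjusted p below 0.05, from the quasi-likelihood test of edgeR. In counts simulated with dispersions of single genes, the share of false calls exceeded this nominal 0.05. Beyond the genes set aside, 53 fell and 11 rose. The lower genes reach across secreted signals and receptors (Sfrp2, Cxcl5, Gas6, Fgf5, Tgfbr3, Gfra2) and ion channels and transporters (Kcnk1, Gabrb2, Slc1a3, Slc2a10). They also include a lysosomal glycoprotein (Gpnmb) and stress, nutrient and antioxidant genes (Ddit4l, Aldh1l2, Nupr1, Gpx7, Sod3). The higher genes were fewer and included Sult4a1, Ppp1r9a, Eif4e3, Klf8, Hecw1 and the Y-linked Kdm5d. Of the 64, 20 belong to the 38 lists of processes examined and 44 to none of them. The lists do not hold every gene of a process, and Gbp9, Agt and Irs4 are among the 44.

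The change was not carried to the same extent by the LIP libraries. Over 11534 genes with 20 or more counts on average, LIP 1 differed more than 2-fold from an EV library at 3.08% to 4.76% of genes. Pairs of EV libraries differed at 1.23% to 2.97% of genes, LIP 2 differed from EV at 11.8% to 14.7%, and LIP 3 at 8.56% to 10.3%. LIP 1 thus lay nearer to every EV library than to LIP 2 (8.32%) or LIP 3 (8.96%). LIP 2 and LIP 3 differed from each other at 12.6% of genes, within the range of LIP 2 against EV.

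The LIP libraries shared part of the genes that lay far from EV. In LIP 1, 219 genes lay at least 2-fold under the EV mean and below every EV library, against 746 in LIP 2 and 727 in LIP 3. Common to all 3 libraries were 105 of these genes, which is 47.9% of the LIP 1 genes but 14.1% and 14.4% of the LIP 2 and LIP 3 genes. A further 272 genes were shared by LIP 2 and LIP 3 without LIP 1, and 320 (42.9%) and 335 (46.1%) were found in LIP 2 or LIP 3 alone. On the higher side the counts were 73, 666 and 248 genes, with 24 common to all. Of the higher genes of LIP 2, 570 (85.6%) were found in that library alone, and of those of LIP 3, 173 (69.8%). These counts use the same 3 EV libraries and are a description without a test.

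**Figure D1:**
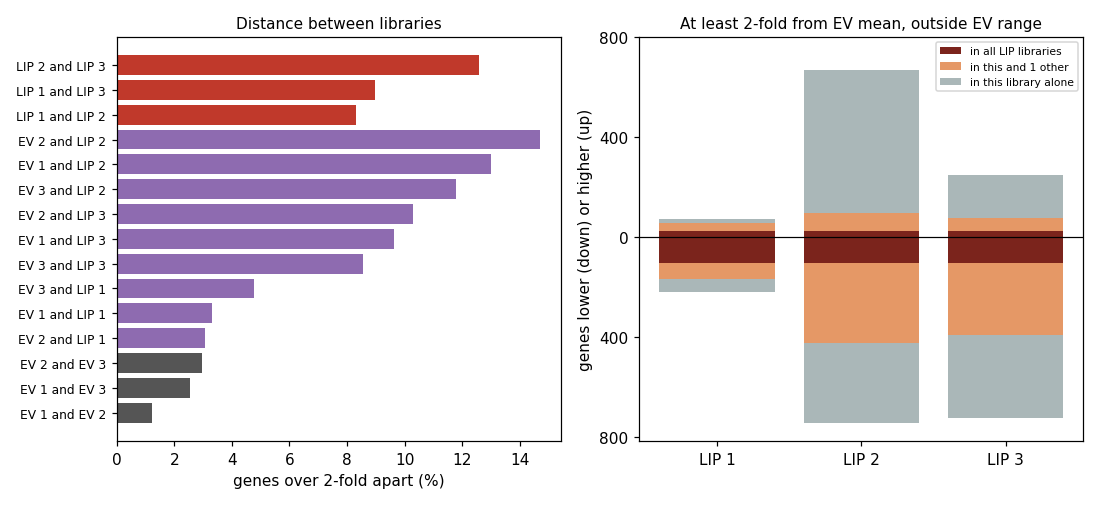
The left panel plots, for each pair of libraries, the percentage of 11534 genes that differ more than 2-fold (grey EV pairs, purple EV with LIP, red LIP pairs). The right panel counts for each LIP library the genes at least 2-fold from the EV mean and outside the EV range, lower genes below the line and higher genes above it, and shows that 105 lower and 24 higher genes were common to all LIP libraries while 570 higher genes were found in LIP 2 alone.

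Each LIP library was then compared with genes called without it, that is in a fit of the other LIP libraries against the same 3 EV libraries. LIP 2 and LIP 3 alone gave 246 lower genes. LIP 1 lay below every EV library at 201 of these (81.7%), against 25.0% of all genes tested in that fit. Its median distance from the EV mean at these genes was -0.68 on the log2 scale, where LIP 2 and LIP 3 averaged -2.06. At the 36 higher genes, LIP 1 lay above every EV library in 33 (91.7%, against 25.4% of all genes), with a median of 0.60 against 1.48. LIP 1 was therefore beyond EV at most of these genes. Its distance was smaller, but the genes were chosen on LIP 2 and LIP 3, which by itself enlarges the values of those libraries.

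LIP 2 lay below every EV library at 26 of the 26 genes that LIP 1 and LIP 3 called lower, where 31.4% of all genes did so. It lay above EV at 4 of the 4 higher genes, with 34.3% as the background. LIP 3 lay below EV at 193 of 230 lower genes (83.9%, background 28.3%), and at those genes its median of -1.60 was close to the -1.40 of the others. On the higher side LIP 3 went along at fewer of the genes. Of 137 genes called higher from LIP 1 and LIP 2, LIP 3 was above every EV library at 72 (52.6%, background 31.8%) and below every EV library at 19, with a median of 0.27 against 1.21. Since all of these fits share the EV libraries, the counts describe the libraries and are no independent test. A smaller median in a left-out library is partly built in, because the other LIP libraries chose the genes.

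None of the 72 called genes had overlapping groups, which largely follows from the test that chose them on these libraries. Over all genes tested, 8.83% had every LIP library below every EV library and 6.80% had every LIP library above. Among the 53 lower genes the median distance from the EV mean was -1.82 in LIP 1, -2.17 in LIP 2 and -2.43 in LIP 3 on the log2 scale. LIP 1 was the nearest to EV at 37 of them and LIP 3 the furthest at 35. Among the 11 higher genes LIP 1 was nearest to EV at 9, and the medians were 1.81, 2.28 and 2.79. Most of these genes are expressed at a low level, since 29 of the 53 lower genes had an EV mean under 10 CPM (counts scaled by TMM to a common library size of 1e6) and 7 of the 11 higher genes as well. Setting apart genes whose mean in a group was at or under the level of 3 counts per library, folds ranged from 1.77 to 13.3 for the lower genes and from 1.91 to 8.54 for the higher ones.

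**Figure D2:**
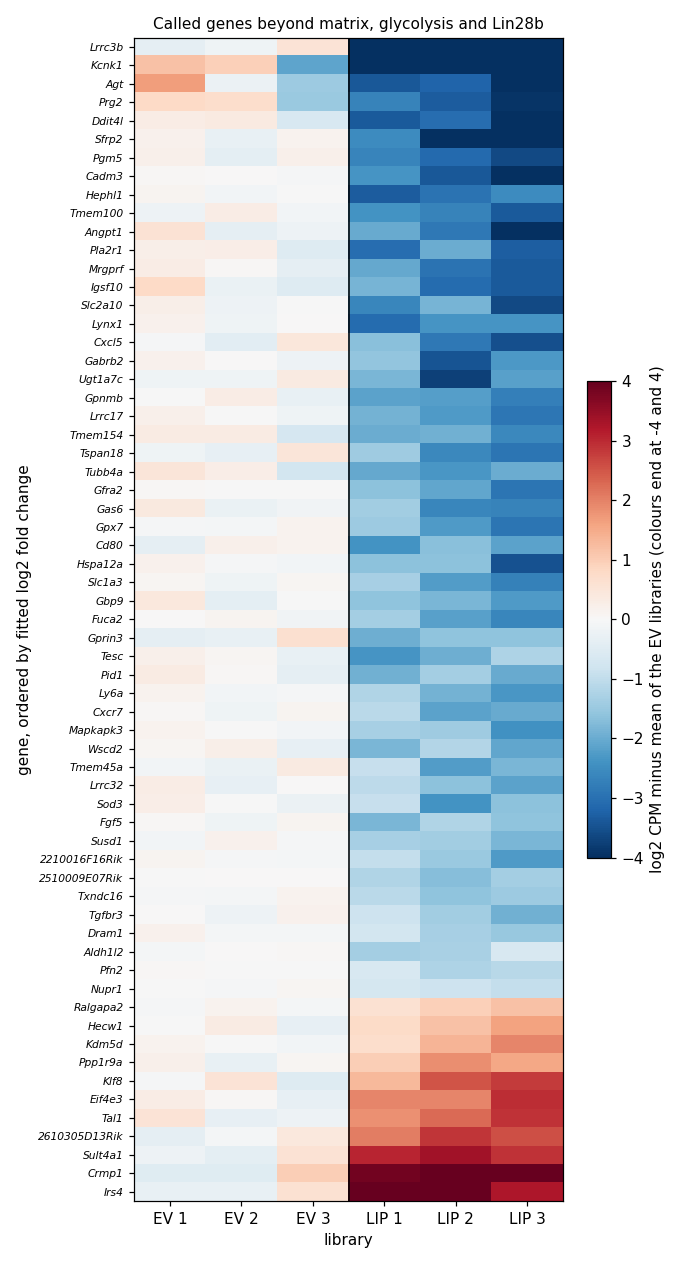
Rows are 52 lower and 11 higher genes beyond matrix, glycolysis and Lin28b, ordered by log2 fold change, and columns are the 6 libraries. Colour gives log2 CPM minus the mean of the EV libraries. Blue fills every LIP column of the lower genes and is palest in LIP 1 for most of them.

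These calls depended on single libraries and on the filter. Leaving out EV 2 kept 22 of the 72 calls and leaving out LIP 2 kept 27, whereas without LIP 3 all 72 were kept, among 230 lower and 137 higher genes. Without LIP 1 there were 246 lower and 36 higher genes. Calls were made in all 6 fits for 16 genes, and 13 of them are not set aside, namely Lrrc3b, Gpnmb, Lrrc17, Hephl1, Pgm5, Cadm3, Ddit4l, Gfra2, Mrgprf, Sfrp2 and Lynx1 on the lower side and Sult4a1 and 2610305D13Rik on the higher side. With edgeR's filterByExpr, which tests 12424 genes, only Lrrc3b, Gpnmb, Hephl1 and Sult4a1 passed the threshold. With a minimum of 10 counts in every library 0 of 11505 genes did so in edgeR (816 lower and 497 higher at an unadjusted p below 0.05). Only 53 of the 72 calls were tested under this minimum, which leaves out genes such as Lrrc3b that have few or no counts in LIP. DESeq2 without such a filter called 248 lower and 73 higher genes.

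The clearest case was Lrrc3b, which encodes a membrane protein with leucine-rich repeats (GRCm38.p6, chr14:15357515-15438987). It had 157, 152 and 317 counts in the EV libraries and 0 counts in each LIP library. With 3 counts per LIP library as a floor, on average 0.107 CPM, it was at least 62.3-fold lower (adjusted p = 0.000350). Floors cover counting error only, because the reads carry no molecular identifiers and may be copies of each other. Expression below that floor was not detectable at this depth. Gpnmb, a glycoprotein of lysosomes and melanosomes (chr6:49036518-49058182), stood at 23.4, 28.6 and 19.3 CPM in EV and at 5.26, 5.05 and 3.47 CPM in LIP. The LIP libraries were alike here, LIP 1 included, and the fold was 5.18 (log2 fold change -2.37 ± 0.24, SE, adjusted p = 0.00252). Hephl1, a multicopper ferroxidase relative (chr9:15051841-15112170), fell from 95, 70 and 94 counts in EV to 6, 10 and 14 in LIP, 7.92-fold lower (adjusted p = 0.00340). For this gene LIP 1 was the lowest library.

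Several of the lower genes encode secreted signals or their receptors. Sfrp2, a secreted Wnt antagonist (chr3:83765750-83774314), had 905, 550 and 936 counts in EV and 106, 45 and 23 in LIP. All LIP libraries were below EV, with LIP 1 the least so, and the fold was 11.8. Gas6, the ligand of the TAM receptor tyrosine kinases (chr8:13465374-13494535), stood at 76.5, 48.7 and 53.3 CPM in EV and 22.4, 9.47 and 9.08 CPM in LIP, 4.37-fold lower (adjusted p = 0.0152, not past the threshold without LIP 2). Cxcl5, a chemokine for neutrophils (chr5:90759298-90761625), had 3885, 2533 and 5748 counts in EV and 953, 520 and 335 in LIP, 5.75-fold lower with the same adjusted p and the same dependence on LIP 2. In both genes LIP 1 was the LIP library nearest to EV.

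Gfra2, the receptor for the neurotrophic factor neurturin (chr14:70890107-70979840), stood at 24.1, 23.1 and 22.9 CPM in EV and at 7.41, 5.52 and 3.05 CPM in LIP, 4.40-fold lower (adjusted p = 0.00776). EV varied little here and all LIP libraries were well below. Lrrc17, a secreted leucine-rich repeat protein (chr5:21543527-21575911), had 985, 713 and 812 counts against 178, 169 and 110, 4.95-fold lower. Mrgprf, an orphan receptor coupled to G proteins (chr7:145300909-145309557), had 211, 151 and 142 counts against 31, 20 and 15, 6.84-fold lower. Both genes were called whichever library was left out.

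Fgf5, a fibroblast growth factor, fell 2.91-fold (153, 109 and 170 counts in EV, 31, 60 and 46 in LIP, adjusted p = 0.0397). Tgfbr3, the TGF-beta co-receptor betaglycan, fell 2.48-fold from 138, 119 and 152 CPM to 76.7, 52.2 and 35.7 CPM with the same adjusted p. These calls were lost without EV 2 and without EV 3, and also without EV 1 and LIP 1 for Fgf5 or without LIP 2 for Tgfbr3. Cd80, a costimulatory ligand for T cells, had 96, 119 and 145 counts in EV and 17, 36 and 26 in LIP (4.25-fold lower, adjusted p = 0.0152, lost without EV 2). Ly6a, the surface protein Sca-1, fell 3.36-fold from 41.8, 34.9 and 36.8 CPM to 16.2, 10.1 and 7.54 CPM (adjusted p = 0.0135, lost without EV 2 or LIP 2). Ly6a is a member of a multigene family, and how reads with several alignments were counted is not given in the sources used here. Cadm3, a cell adhesion molecule of the nectin-like family that is not in the families set aside, had 103, 84 and 101 counts in EV and 14, 8 and 5 in LIP, 9.47-fold lower and called in every fit that left out a library.

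Of 215 ion channel subunits tested, 3 were lower and 0 were higher, beside 0.330% lower of all genes (edgeR, 16 and 9 at an unadjusted p below 0.05). Kcnk1, a leak potassium channel subunit, had 230, 165 and 24 counts in EV and 2, 4 and 3 in LIP (adjusted p = 0.0152, lost without LIP 2). Its LIP mean is at the level of 3 counts per library, so no fold is given. EV 3 stood far below the other EV libraries but still above LIP. Gabrb2, a subunit of the GABA-A receptor (chr11:42419515-42632591), had 51, 39 and 42 counts in EV and 11, 3 and 8 in LIP, 5.36-fold lower (adjusted p = 0.0495, called in 2 of the 6 fits that left out a library). The median of the whole list was 0.09, near the 0.04 of all genes tested, and these few calls say nothing of the list as a whole.

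Among 299 solute carriers tested, 2 were lower and 0 higher, beside the same 0.330% (edgeR, 24 and 14 at an unadjusted p below 0.05), with a median of -0.06. Slc1a3, a glutamate transporter, stood at 13.4, 11.2 and 13.2 CPM in EV and 5.01, 2.63 and 1.90 CPM in LIP, 3.99-fold lower (adjusted p = 0.0205, lost without EV 2 or LIP 2). Slc2a10, a facilitative sugar transporter, had 44, 27 and 39 counts in EV and 4, 9 and 2 in LIP, 6.58-fold lower (adjusted p = 0.0397, called in 2 of the 6 fits). Both were lower in all LIP libraries.

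Stress and nutrient genes also had lower members. Ddit4l, an inhibitor of the growth kinase complex mTORC1 (chr3:137623672-137628332), had 1007, 881 and 557 counts in EV and 60, 93 and 17 in LIP, 13.3-fold lower (adjusted p = 0.00650). It was the only call among 24 genes of mTORC1 and its inhibitors, beside 0.330% of all genes called lower, and their median was -0.03. Of 44 genes of serine and one-carbon metabolism and of the ATF4 response, which serves amino acid supply, 41 had a log2 fold change below 0 (93.2%, against 46.0% of all genes tested), with a median of -0.26. Aldh1l2, the mitochondrial formyltetrahydrofolate dehydrogenase, fell 2.08-fold from 136, 146 and 147 CPM to 56.0, 58.5 and 91.8 CPM (adjusted p = 0.0401), with LIP 3 nearest to EV. Nupr1, a stress-induced nuclear protein, fell 1.77-fold from 42.0, 40.9 and 45.2 CPM to 26.1, 24.1 and 22.0 CPM (adjusted p = 0.0481). Aldh1l2 kept its call in 1 and Nupr1 in 2 of the 6 fits that left out a library. By library the median of this list was -0.07 in LIP 1, -0.55 in LIP 2 and -0.32 in LIP 3.

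Of 49 glutathione and antioxidant genes, 2 fell, beside 0.330% of all genes, and the list median was -0.16, or -0.05 over the 39 members with 20 or more counts on average. Gpx7, a glutathione peroxidase family member of the endoplasmic reticulum, had 474, 389 and 566 counts in EV and 136, 95 and 61 in LIP, 4.32-fold lower (adjusted p = 0.0152, lost without EV 2 or LIP 2). Sod3, the extracellular superoxide dismutase, stood at 58.2, 48.1 and 41.2 CPM against 25.6, 9.17 and 15.7 CPM, 2.93-fold lower (adjusted p = 0.0487, lost without EV 1, EV 2 or LIP 2).

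On the higher side, Sult4a1, a sulfotransferase family member best known from brain (chr15:84076097-84105754), had 15, 11 and 28 counts in EV and 114, 178 and 130 in LIP, 8.54-fold higher. LIP 1 was as high as the others here. 2610305D13Rik (chr4:147611936-147642508) had 54, 56 and 99 counts in EV and 223, 481 and 402 in LIP, 5.68-fold higher (adjusted p = 0.00340). Eif4e3, a cap-binding protein of the eIF4E family, stood at 0.852, 0.711 and 0.535 CPM in EV and 2.73, 2.76 and 5.60 CPM in LIP, 5.28-fold higher (adjusted p = 0.0173, lost without EV 2). It was the only call among 43 translation initiation factors, beside 0.0659% of all genes called higher, and their median was 0.05.

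Ppp1r9a, the actin-binding neurabin and an imprinted gene, rose 2.82-fold from 15.0, 10.7 and 13.8 CPM to 25.8, 47.2 and 38.4 CPM (adjusted p = 0.0172, lost without EV 2 or LIP 2). Hecw1, an E3 ubiquitin ligase, rose 2.31-fold from 21.7, 27.6 and 17.5 CPM to 37.4, 49.8 and 67.4 CPM (adjusted p = 0.0487). Ralgapa2, a subunit of a GTPase-activating complex for Ral proteins, rose 1.91-fold from 45.9, 52.2 and 44.6 CPM to 72.4, 92.8 and 107 CPM (adjusted p = 0.0414). Klf8, a Kruppel-like factor, had 20, 26 and 15 counts in EV and 40, 117 and 144 in LIP, 5.05-fold higher (adjusted p = 0.0401). Hecw1, Ralgapa2 and Klf8 kept their calls in 2 of the 6 fits that left out a library. In each of these genes LIP 1 was the lowest LIP library.

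Kdm5d, a histone demethylase on the Y chromosome, stood at 40.0, 35.7 and 33.9 CPM in EV and at 59.2, 92.6 and 143 CPM in LIP, 2.69-fold higher (adjusted p = 0.0397, lost without EV 2, EV 3 or LIP 2). The Y-linked Ddx3y was at a log2 fold change of 0.92 (adjusted p = 0.0925) and Uty at 0.60 (adjusted p = 0.357), while Eif2s3y was at -0.38 and lay 2.08 below the EV mean in LIP 3 on the log2 scale.

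**Figure D3:**
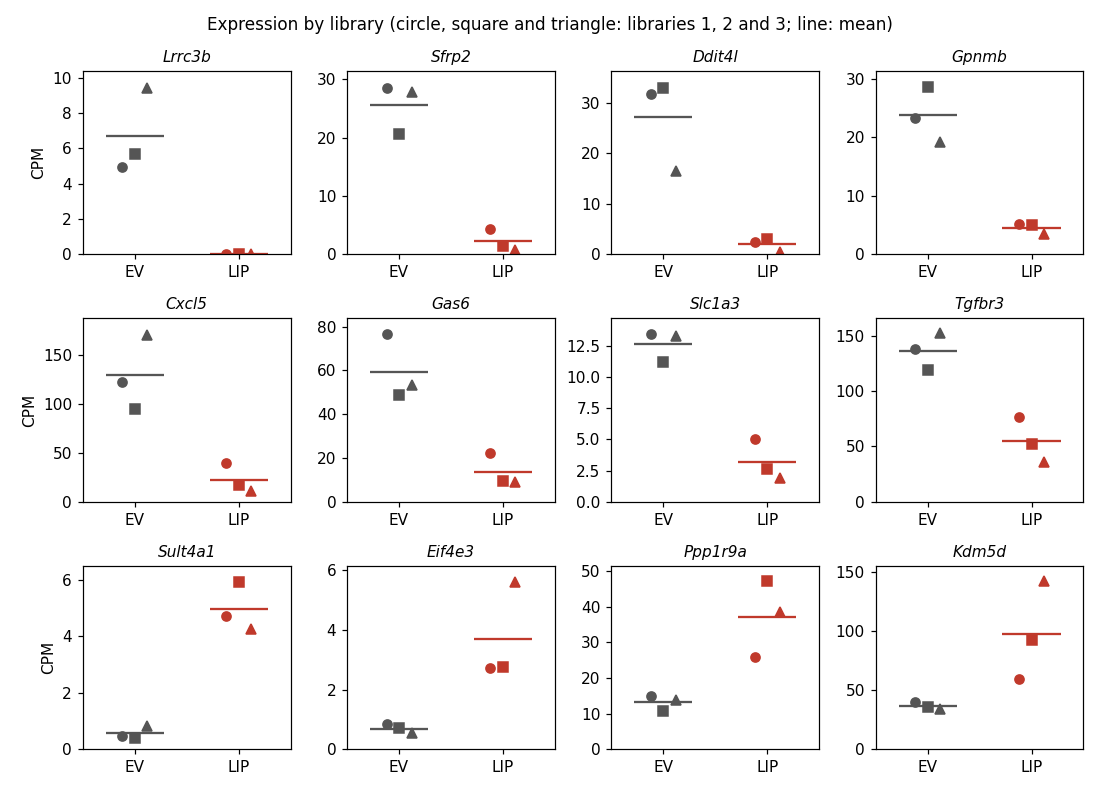
Points give CPM in each library for 12 called genes, with EV in grey, LIP in red and a line at the mean of 3 libraries. No LIP point overlaps the EV points, and in Cxcl5, Tgfbr3, Sfrp2, Ppp1r9a and Kdm5d the circle of LIP 1 is the LIP point nearest to EV.

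The remaining called genes were not selected by the rule for naming and are listed here by kind, after their calls were known. The lower ones include the Tie2 ligand Angpt1, angiotensinogen (Agt), the chemokine scavenger receptor Cxcr7 (RefSeq Ackr3), the phospholipase A2 receptor Pla2r1, Lrrc32, the TGF-beta anchoring protein GARP, the tubulin Tubb4a, the profilin Pfn2, the guanylate-binding protein Gbp9, the autophagy regulator Dram1 and the kinase Mapkapk3. Higher ones include Irs4, an insulin receptor substrate, Crmp1 of semaphorin signalling and Tal1, a bHLH factor of blood cells. Irs4 had 0, 0 and 1 counts in EV and 21, 32 and 11 in LIP.

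C/EBP dimers bind a palindromic core that begins with TTGC on either strand. The 250 bases before the transcript start were searched for TTGCNNAA and its reverse complement TTNNGCAA, which covers both strands (RefSeq promoters, GRCm38.p6). Promoters were found for 37 of the 53 lower and 8 of the 11 higher genes. The motif was present in 4 (10.8%) and 1 (12.5%) of these, against 9.54% of the 13967 tested genes with a promoter and 8.17% of all single windows. The share among called genes was thus near that of all genes. The matches are shown with the motif in capitals, 5′ to 3′ on the gene's strand, because these are the called genes whose promoter holds it, and they are no evidence of binding.
Sfrp2, chr3:83766265-83766294, + strand: cacctccagatTTGCATAAaaaaggccaag
Cxcr7, chr1:90203922-90203951, + strand: agagccgagggTTGCAAAActgccacctag
Hephl1, chr9:15112235-15112264, - strand: gggaggtctgcTTGCACAAgttgtcagccc
Dram1, chr10:88357131-88357160, - strand: gacttcaccggTTTCGCAAcaagccaggac
Tal1, chr4:115056216-115056245, + strand: gtcttttatctTTGAGCAAttccagtttta
Counted from the transcript start of the RefSeq window, which in Sfrp2, Hephl1 and Dram1 lies inside the gene's span, the motif begins 45 bases upstream in Sfrp2, 47 in Cxcr7, 145 in Hephl1, 74 in Dram1 and 199 in Tal1. Dram1 holds another match at the far edge of its window.

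In the main fit no C/EBP family gene passed the test. Cebpd had 6461, 3835 and 7057 counts in EV and 3647, 1968 and 2683 in LIP, with a log2 fold change of -0.87 ± 0.27 (SE, adjusted p = 0.214). LIP 1 stood at 151 CPM, above the 144 CPM of EV 2, so the groups overlapped. Without LIP 1 the log2 fold change of Cebpd was -1.27 (adjusted p = 0.0269, edgeR). It did not pass when any other library was left out (adjusted p from 0.166 to 0.433). With the replicate block it was -0.94 (adjusted p = 0.0126). For Cebpa the log2 fold change was -0.33, for Cebpg -0.09 and for Cebpb 0.12, with an adjusted p of 0.701 or more in each. The plasmid carries rat Cebpb, whose reads may or may not have aligned to the mouse gene, which was not tested. The counts of Cebpb given above are therefore no check of the LIP labels. Of 40 listed acute-phase, adipogenic and inflammatory genes known as C/EBP targets, Cxcl5 and Gas6 fell, beside 0.330% of all genes called lower. The list is not complete, and Agt, also called lower, is not on it. Of the list, 29 had a log2 fold change below 0 (72.5%, against 46.0% of all genes tested), and the median was -0.41. The median was -0.13 in LIP 1, -0.76 in LIP 2 and -1.11 in LIP 3.

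Lists of processes were described by all their tested members, beside 6.75% of all genes tested that were lower and 4.22% that were higher at an unadjusted p under 0.05. The median log2 fold change over all genes tested was 0.04, and 46.0% of them were below 0. Calls at the adjusted threshold made up 0.330% (lower) and 0.0659% (higher) of all genes. Of the 38 lists, 27 had a median below 0, and 25 kept the sign of their median in all 12 alternatives, 20 of them below 0 and 5 above.

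Cytosolic ribosomal proteins, the structural proteins of the translating ribosome, had the highest median of the lists. Of 78 genes, 77 had a log2 fold change above 0, with a median of 0.34, and 20 had an unadjusted p under 0.05, although 0 passed the adjusted threshold with edgeR's quasi-likelihood test. The summed level of the list was 61600, 63200 and 67600 CPM in EV and 66100, 96600 and 80100 CPM in LIP, so that LIP 1 lay within the EV range (p = 0.2, two-sided exact permutation test, smallest possible 0.1). Rpl38, the member with the smallest p, had 1172, 1181 and 1498 counts in EV and 1070, 2756 and 1907 in LIP (log2 fold change 0.66 ± 0.23, SE, adjusted p = 0.292). Ribosomal protein genes have many processed copies in the genome, and how shared reads were counted is not given in the sources used here. Mitochondrial ribosomal proteins (median 0.07, 55 of 76 above 0) and subunits of oxidative phosphorylation (median 0.10, 52 of 76 above 0) stood nearer to all genes. Zfp zinc finger genes, mostly DNA-binding repressors, had a median of 0.14 with 253 of 353 above 0. At an unadjusted p under 0.05, 20 of them were higher and 10 lower.

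Ribosome biogenesis and Myc-linked growth genes were ordered differently by library, with medians of 0.38 in LIP 1, 0.03 in LIP 2 and -0.22 in LIP 3. Their fitted median was 0.10, and Npm1, a nucleolar chaperone, had 84.6, 84.4 and 85.9 CPM in EV and 127, 125 and 106 CPM in LIP (adjusted p = 0.206). Cell cycle lists stayed near 0, at 0.04 for 43 genes of DNA replication, -0.09 for 41 of mitosis and -0.01 for 26 cell cycle inhibitors and p53 targets. The members with the smallest p were E2f2 (log2 fold change 0.63, adjusted p = 0.335), Cenpa (0.58, adjusted p = 0.280) and Cdkn2a (-0.82, adjusted p = 0.186).

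Lysosomal genes were on the negative side, with 46 of 55 below 0 and a median of -0.34, and 15 of them were at an unadjusted p under 0.05. The list was lowest in LIP 2, at -0.87 against -0.11 in LIP 1 and -0.19 in LIP 3. Gpnmb, by contrast, lay at -2.15, -2.21 and -2.74. The unfolded protein response and chaperones (median -0.23, 34 of 40 below 0) showed the same order of libraries, with 0.04 in LIP 1, -0.63 in LIP 2 and -0.18 in LIP 3. Hspa1b, an inducible heat shock protein with a near-identical copy, had a log2 fold change of -1.29 (adjusted p = 0.186). Proteasome subunits had a median of -0.03, and Psmb5, a catalytic subunit, stood at -0.46 (adjusted p = 0.309).

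In cholesterol and fatty acid synthesis 34 of 42 genes were below 0, with a median of -0.30 and 13 lower at an unadjusted p under 0.05, and 0 passed the adjusted threshold. The medians of the list were -0.05, -0.44 and -0.40 in LIP 1 to LIP 3. Citrate cycle and fatty acid oxidation genes had a median of -0.10, which turned to 0.01 without LIP 2, and Sucla2 was at -0.52 (adjusted p = 0.288).

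Among signalling lists, the insulin-like growth factor axis had the median -0.66 over 23 genes, with -0.03 in LIP 1, -0.97 in LIP 2 and -0.72 in LIP 3. Its member with the smallest p went the other way, since Irs2, an insulin receptor substrate, had 1667, 1487 and 1681 counts in EV and 1772, 2367 and 2897 in LIP (log2 fold change 0.64 ± 0.16, SE, adjusted p = 0.109). Of 58 Wnt ligands, receptors and antagonists, Sfrp2 fell, beside 0.330% of all genes called lower. At an unadjusted p under 0.05, 19 were lower, and the median was -0.34. This list was below 0 in every LIP library, at -0.28, -0.60 and -0.34. Growth factor signalling by FGF, PDGF, VEGF, EGF and HGF had a median of -0.18, TGF-beta and BMP signalling -0.16, axon guidance -0.12 and Notch with Hedgehog 0.04. Plxnc1, a semaphorin receptor, had a log2 fold change of -2.42 (adjusted p = 0.0639) and Jag2, a Notch ligand, 0.79 (adjusted p = 0.0754).

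Interferon response and antigen presentation had the lowest median, -1.01, with 44 of 53 genes below 0. Many of its members have few counts, and with filterByExpr the median was -0.26. Gbp2, an interferon-induced GTPase, had 107, 79 and 142 counts in EV and 28, 36 and 45 in LIP (log2 fold change -1.46 ± 0.29, SE, adjusted p = 0.0536). Chemokines and cytokines had a median of -0.33. AP-1 and immediate early genes had a median of -0.29 and differed by library, with -0.02 in LIP 1, 0.01 in LIP 2 and -0.84 in LIP 3, and without EV 3 the fitted median was 0.03.

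Lists of positional identity had medians below 0, with members on both sides. Of 33 Hox genes, 19 were below 0 (57.6%, against 46.0% of all genes tested), with a median of -0.26. None was called, and Hoxd8 was at -1.54 (adjusted p = 0.153). Other patterning factors had a median of -0.30 over 88 genes, with 63.6% below 0 and no call. Prrx1, a limb mesenchyme factor, had 917, 688 and 921 counts against 443, 429 and 343 (log2 fold change -0.91, adjusted p = 0.0863). Of 24 mesenchymal transition and myogenic regulators, 13 were below 0 and 11 above, with a median of -0.02. Snai2, 1 of these and picked for its small p, stood at 40.7, 38.2 and 39.4 CPM in EV and 22.7, 13.3 and 7.73 CPM in LIP (log2 fold change -1.44, adjusted p = 0.0662). Contractile genes (-0.05), imprinted genes (-0.02) and let-7 axis genes other than Lin28b (0.08) stayed near 0. Retinoid, steroid and xenobiotic metabolism had a median of -0.38. Sult4a1, which was higher, was the only call among its 38 listed genes, beside 0.0659% of all genes called higher. Ugt1a7c, called lower (log2 fold change -2.41, adjusted p = 0.0205, edgeR), is not on this list. The smallest p among contractile genes was that of Ankrd1 (log2 fold change 0.78, adjusted p = 0.314), and among the let-7 axis that of Lgr4 (-0.70, adjusted p = 0.174).

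**Figure D4:**
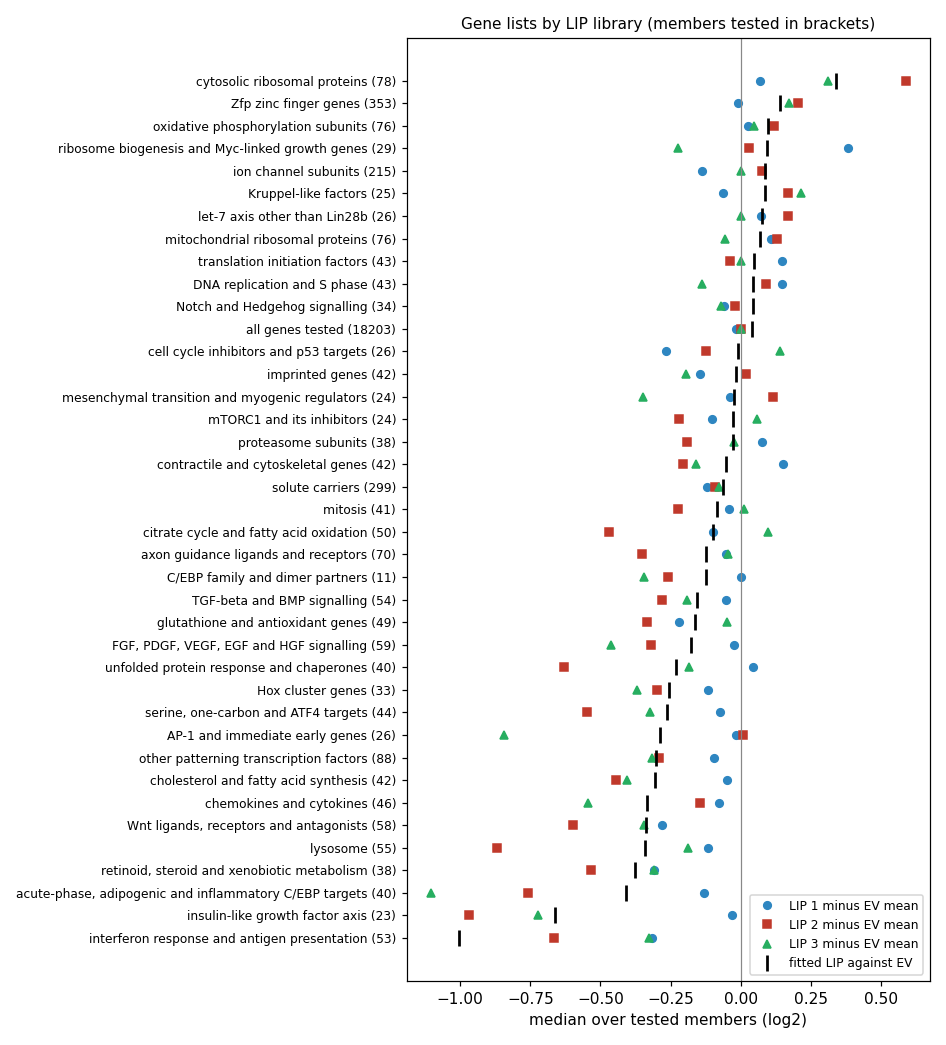
Each row is a list of genes with its number of tested members, and the horizontal axis is the median log2 difference from the EV mean in LIP 1 (circles), LIP 2 (squares) and LIP 3 (triangles), with the fitted median as a black tick. LIP 1 lies nearest to 0 for most lists with a median under -0.2, LIP 2 is lowest for lysosome and insulin-like growth factor axis, and LIP 3 for the C/EBP targets and AP-1 genes.

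The fibroblast label was checked with 12 markers, and all of them were detected. Their sum was 40900, 36300 and 37700 CPM in EV and 31100, 17600 and 30000 CPM in LIP (p = 0.1, the least that a two-sided exact permutation test of 3 against 3 can give). None was called, 7 were lower at an unadjusted p under 0.05, and the list holds collagen genes that are set aside above. Summed leukocyte markers lay between 6.59 and 11.3 CPM, with Ptprc, Itgam, Cd52 and Tyrobp at 0 in all 6 libraries. Endothelial markers lay between 3.30 and 3.88 CPM in EV and between 2.09 and 3.02 CPM in LIP, with Pecam1 and Emcn at 0. Adipocyte markers, with Plin1 at 0, lay between 1.46 and 2.81 CPM in EV and between 0.688 and 1.12 CPM in LIP. In both lists the groups did not overlap (p = 0.1, the least the exact permutation test can give), and their part in the results was not tested. Skeletal muscle markers stayed under 3 CPM in sum. Neuronal and glial markers lay between 133 and 180 CPM without a separation of the groups, and epithelial markers between 1130 and 2300 CPM, highest in LIP 3. Fewer cells of a type and less RNA per cell cannot be told apart in bulk samples. Total counts, genes detected and the share of counts in the 10 most abundant genes did not separate the groups (p = 0.3, 0.9 and 0.3, two-sided exact permutation test).

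Some genes set a single LIP library apart. In LIP 1 these were U90926 and the tenascins Tnn and Tnc, matrix proteins otherwise set aside. Tnn, U90926 and Tnc had 174, 1304 and 18527 counts in LIP 1 against 9 to 16, 95 to 242 and 944 to 3568 in the other LIP libraries. For U90926 and Tnc the LIP 1 value of 54.0 and 767 CPM was above every EV library. LIP 2 had 358 counts of Apol8, 154 of Serinc4 and 299 of Gm10818, where no other library exceeded 66. LIP 3 had 3 counts of Mcpt8, 22 of Slco4a1 and 7 of Hmga2-ps1, where LIP 1 and LIP 2 had 87 and 110, 450 and 307, and 119 and 91. These genes were chosen for the gap between libraries, so the values are a description.

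Differences also followed chromosomes. Over 10188 genes with 50 or more counts on average, 48.1% had a log2 fold change below 0. On chromosome 16 it was 83.8% (275 of 328 genes), with a median of -0.26, and on chromosome 14 it was 74.2% (242 of 326), with a median of -0.20. Every LIP library lay below every EV library at 119 of the chromosome 16 genes, and the reverse held for 2. Over all 10188 genes these counts were 1122 and 801. The chromosome 16 median was -0.16 in LIP 1, -0.30 in LIP 2 and -0.41 in LIP 3, while EV libraries lay between -0.05 and 0.06. In windows of 10 Mb along chromosome 16, the median was below 0 in 10 of 10, from -0.51 to -0.20. Along chromosome 14 it lay between -0.02 and 0.04 in the first 40 Mb and between -0.40 and -0.15 beyond, so the difference was regional. Chromosome 5 had 69.1% below 0 and a median of -0.15. Chromosome 19 had the highest autosomal median, 0.12. Of the genes described above, those on chromosome 16 include Cebpd, Snai2 and Cd80. Those on chromosome 14 beyond 40 Mb include Gfra2, Sucla2 and Psmb5, and those on chromosome 5 include Lrrc17, Cxcl5, Fgf5, Tgfbr3 and Sod3. The cause of these differences was not tested.

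**Figure D5:**
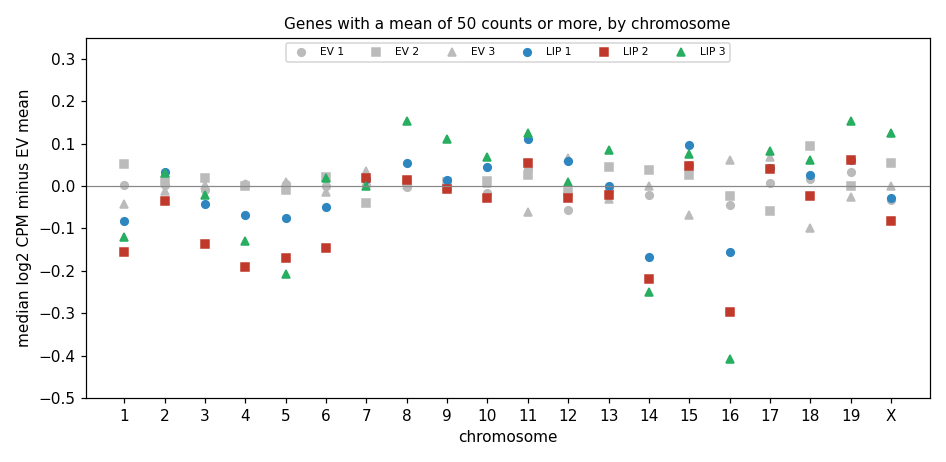
Points give the median log2 CPM minus the EV mean over genes of each chromosome with 50 or more counts on average, for EV libraries in grey and LIP libraries in colour (chromosome Y, with 4 such genes, is left out). All LIP libraries lie below the EV libraries on chromosomes 14 and 16, LIP 3 lowest.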

How the data were processed

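RNA of 3 EV and 3 LIP libraries was analysed. Per the paper's methods, the authors sequenced 50 bp single ends, aligned them with TopHat 1.4.1 to mm10 with RefSeq annotation, and counted reads per gene with HTSeq 0.5.4. The deposited values are whole-number counts that sum to a different total in each library, so they were used as raw counts. Tool versions also stand in the submitters' processing notes. Strand setting and multiple alignments are not given in the sources used here.

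All genes with at least 1 count in the 6 libraries were scaled with TMM and tested with edgeR 4.0.16 (R 4.3.3) by the quasi-likelihood test without covariates, with Benjamini-Hochberg adjustment at 0.05. SE was taken as the size of the log2 fold change over the root of F. Log2 CPM per library use a prior count of 1, and 3 counts stand for 0.0892 to 0.124 CPM. Library properties were compared by two-sided exact permutation tests. Tested on simulated counts, the share of false calls stayed below the nominal 0.05 with dispersions from the trend and exceeded it with dispersions of single genes.

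Members, gene lists and tests were chosen with earlier results of these data known. Named are, among calls with a mean of at least 50 counts, no overlap of groups and not set aside, up to 14 lower and 12 higher with the smallest p, called list members or else the member with the smallest p (mean of at least 20 counts), 4 Cebp genes, 3 genes per LIP library with the largest gap, and genes called in every fit without 1 library. Positions and promoters are from RefSeq (GRCm38.p6), which matched 18061 of 18203 genes. The table holds 23337 symbols, and LAP columns entered the alternative with 9 libraries. Some genes that the rule names are not reported here. Figures were drawn with matplotlib 3.10.9. As alternatives served DESeq2 1.42.0, edgeR's exact test, both tests together, robust estimation, other scalings and filters, all 9 libraries, a replicate block, each library left out, and stricter thresholds.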

Additional observations from a re-analysis of the deposited data

How the results depend on the processing

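Lower and higher calls, given as all and then beyond the set-aside lists, varied more than 1.5 times. They were 248 and 73 (214 and 72) with DESeq2, 242 and 59 (206 and 58) with the edgeR exact test, 204 and 53 (174 and 52) with both, 127 and 30 (114 and 29) with all 9 libraries, 23 and 6 (20 and 6) with robust estimation, and 30 and 6 (25 and 6) with total counts only. With filterByExpr they were 3 and 1 (3 and 1), with at least 10 counts in every library 0 and 0 (0 and 0), and at an adjusted p under 0.01 they were 11 and 2 (10 and 2). Leaving out a library gave 20 to 246 lower and 2 to 137 higher calls (16 to 206 and 2 to 135). With DESeq2's size factors 63 of the 72 calls were kept. The cause of these differences was not tested.

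With the replicate block the calls were 402 and 65 (346 and 64), all 72 among them. Deviations of same-numbered EV and LIP libraries correlated at 0.288, -0.132 and 0.223, and those of differently numbered ones at -0.38 to 0.209. The labels do not say whether the numbers mark shared batches, and these few values cannot decide it. Under the replicate block Mcpt8 was at -0.45. Scaling by total counts moved the share of left-out LIP 3 beyond EV to 89.3% of lower and 70.8% of higher genes, among 75 and 24 genes where the main scaling gave 230 and 137. It also moved the median of all genes from 0.04 to 0.08.

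Signs of genes not called also turned when a library was left out. Over these fits Cebpg ranged from -0.15 to 0.00023, U90926 from -2.14 to 0.49, Apol8 from -0.0050 to 3.10, Serinc4 from -0.44 to 1.36, Gm10818 from -0.31 to 1.96, Mcpt8 from -0.37 to 0.64 and Hmga2-ps1 from -0.92 to 0.36. The 13 lists whose median changed sign in some alternative had medians of at most 0.29 in size. Depth limits what is detectable to 0.0892 to 0.124 CPM, the level of 3 counts.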
